A study of Mus musculus with 30 samples.

Results

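The 6 genes described here encode the nuclear receptors for retinoic acid in the mouse. They are the retinoic acid receptors Rara, Rarb and Rarg and the retinoid X receptors Rxra, Rxrb and Rxrg. They were taken by symbol from the 49315 genes counted in each library, whatever their values, and all 6 passed the filter on low counts. The libraries came from testes of C57BL/6 mouse fetuses, taken on gestational day 14, freed of the mesonephros and kept in culture for 24 h. Cultures received the DMSO vehicle alone (15 libraries), mono-(2-ethylhexyl) phthalate (MEHP) at 100 µM (6 libraries), all-trans retinoic acid (ATRA) at 1 µM (5 libraries), or MEHP and ATRA together at the same doses (4 libraries). The DMSO dilution was 1 in 4000 in every culture, treated ones included. MEHP is the active monoester of a common plasticizer, and ATRA is the vitamin A metabolite that the retinoic acid receptors bind. Library titles carry a number that lies either below or above 500, and its meaning is not stated. The MEHP libraries were all above 500, the ATRA and MEHP + ATRA libraries were all below it, and vehicle libraries fell on both sides. Vehicle is therefore given as 9 low-number and 6 high-number libraries, and each treatment was set against the vehicle libraries of its own side.

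Retinoic acid receptors work as pairs with a retinoid X receptor on DNA. Such a pair binds 2 copies of a short hexamer that point the same way, with 1, 2 or 5 bases between them. Without ligand it holds corepressor complexes at the gene, and binding of retinoic acid exchanges these for coactivators. Retinoid X receptors also pair with other receptors, among them the peroxisome proliferator-activated receptors through which phthalate monoesters are known to act. In the fetal gonad, retinoic acid is known for switching on Stra8 and meiosis in germ cells, and the fetal testis is known for degrading it through CYP26B1.

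Rarb is a textbook target of its own ligand, so the sequence upstream of its start was set beside those of Rarg and Rara. RefSeq windows on GRCm38.p6, each from 250 bases before a transcript start to the 50th base of the transcript, were searched on both strands for the hexamer AGGTCA, for its variants GGGTCA or AGTTCA or also GGTTCA, and for 2 such hexamers in the same direction, 1, 2 or 5 bases apart. A repeat also counts as 2 hexamers. The 250 bases before the start are shown, 5′ to 3′ along the gene, with each hexamer on either strand in capitals.
Rarb, chr14:16575477-16575726, minus strand: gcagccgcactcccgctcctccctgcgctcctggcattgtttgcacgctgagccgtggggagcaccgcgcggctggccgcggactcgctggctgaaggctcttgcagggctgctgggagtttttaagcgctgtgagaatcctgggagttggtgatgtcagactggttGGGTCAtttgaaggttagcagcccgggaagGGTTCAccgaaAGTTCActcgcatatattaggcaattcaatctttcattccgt
Rarg, chr15:102257523-102257772, minus strand: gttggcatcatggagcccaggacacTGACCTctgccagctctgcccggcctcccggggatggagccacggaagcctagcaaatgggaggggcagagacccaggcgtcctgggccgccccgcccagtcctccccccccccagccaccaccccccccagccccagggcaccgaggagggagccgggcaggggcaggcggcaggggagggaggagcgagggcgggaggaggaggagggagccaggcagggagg
Rara, chr11:98939461-98939710, plus strand: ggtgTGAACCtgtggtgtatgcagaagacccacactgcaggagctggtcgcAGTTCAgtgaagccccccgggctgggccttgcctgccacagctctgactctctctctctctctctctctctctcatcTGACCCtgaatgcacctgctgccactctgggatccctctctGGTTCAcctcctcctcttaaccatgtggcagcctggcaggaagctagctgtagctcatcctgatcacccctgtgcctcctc
The Rarb sequence held 3 hexamers, and the last 2 made a repeat with a 5-base spacer, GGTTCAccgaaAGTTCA, at chr14:16575513-16575529. It lies 53 to 37 bases before the transcript start and is known as the retinoic acid response element of this promoter. A repeat of that spacing stood in 32 of 32851 mouse windows (0.0974%). Of the 13 windows of the 6 receptor genes, 7 held a hexamer, against 43.7% of all windows, and only this Rarb window held a repeat of any of the 3 spacings. The Rarg sequence held 1 hexamer, on the opposite strand. The Rara sequence is the 1 of 4 Rara windows with the most hexamers, 4 of them. These matches describe letters in short windows and say nothing of binding.

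Each library held 17551454 to 29306917 counts, and log2 levels correlated between 0.9631 and 0.9931 across pairs of libraries. Some markers of the labelled tissue are given for scale. The Sertoli cell gene Amh stood at 400 to 1600 CPM (counts scaled to the size of the library) over the 30 libraries, the germ cell gene Ddx4 at 66.9 to 161 CPM, and the Leydig cell gene Insl3 at 136 to 286 CPM. The summed level of 6 mesonephros and duct markers was 5.96 to 16.5 CPM. All libraries carry the same tissue label and no limit was set in advance, so these levels describe the libraries and do not test the label.

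In vehicle cultures, Rxrb, Rxra and Rara made up most of the receptor mRNA. Levels that are to be set against each other between genes are given as TPM, which scales counts to gene length and library size. In the low-number vehicle libraries Rxrb stood at 80.1 ± 6.97 TPM (SD, n = 9), Rxra at 78.7 ± 6.15 and Rara at 66.5 ± 8.01. Rxrb exceeded Rxra in 6 of 9 libraries with overlapping ranges, and Rxra exceeded Rara in 9 of 9, also with overlapping ranges. Rarg followed at 26 ± 2.7 TPM, below every Rara value, then Rarb at 2.83 ± 0.788 TPM and Rxrg at 1.02 ± 0.221 TPM. The order was the same in the high-number vehicle libraries and with MEHP. Rxrg rested on 4 to 37 counts a library over the whole series, so its changes are the least precise of the 6.

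**Figure D1:**
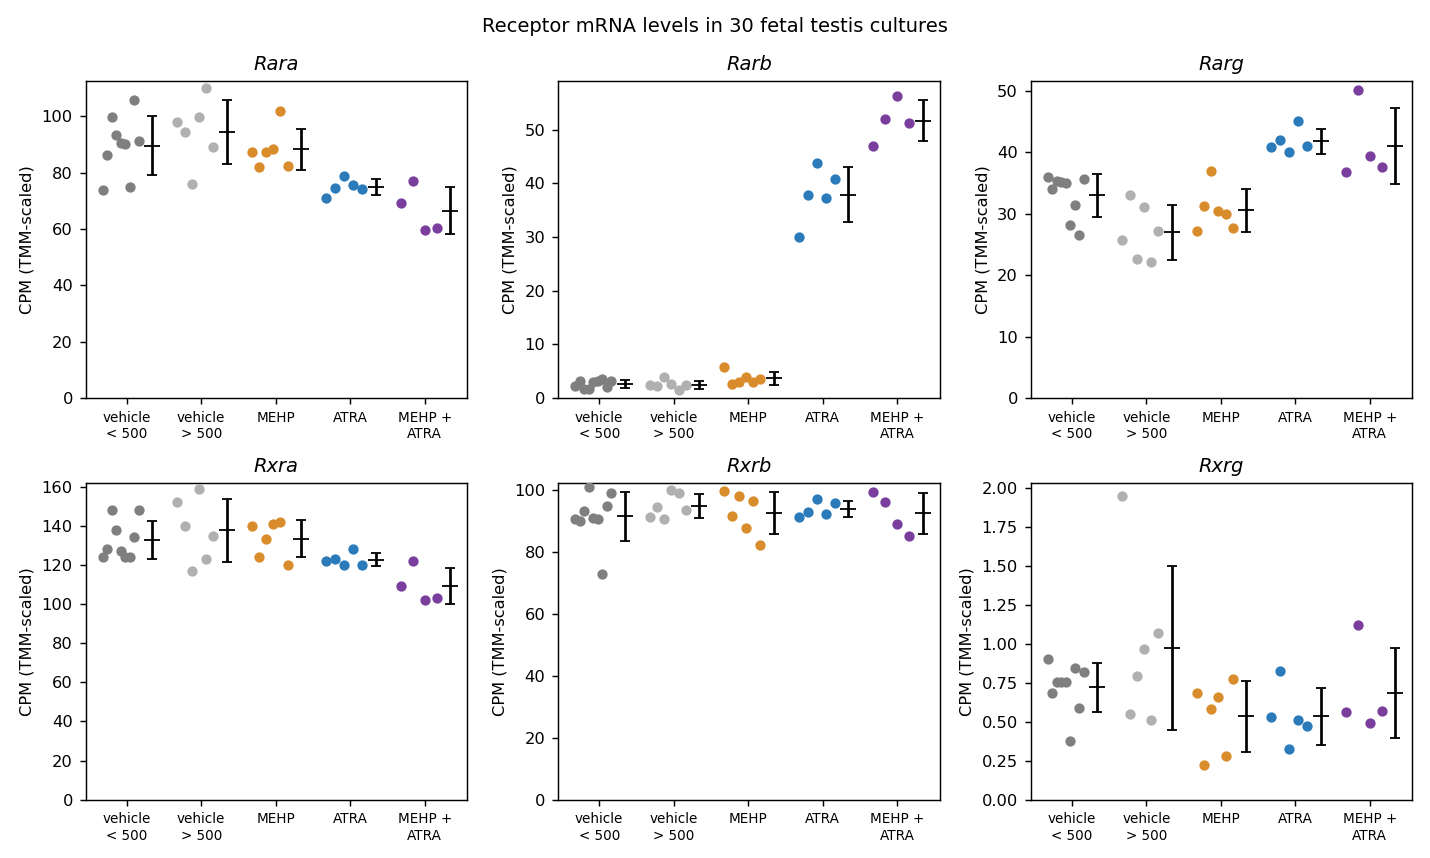
Levels of the 6 receptor mRNAs in CPM (linear axes from 0, scales differ between panels), with 1 point per library and the mean ± SD of each group beside it. Rarb stands at 1.58 to 5.79 CPM without ATRA and at 30 to 56.3 CPM with it, while the Rxrb groups all overlap.

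ATRA changed the retinoic acid receptors in opposite directions: Rarb and Rarg rose and Rara fell, while none of the 3 retinoid X receptors passed the test. Fold changes are log2 values ± SE from 1 edgeR quasi-likelihood model over all libraries, with Benjamini-Hochberg adjustment over 19323 genes and a threshold of 0.05. Of the 6 receptors, 3 were called, against 18.1% of all genes tested (9.06% higher and 9.03% lower). With a share this high in the background, the number called says little, and the results lie in the sizes.

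Rarb encodes retinoic acid receptor beta (ENSMUSG00000017491, GRCm38 frame, chr14:16430842-16575472, minus strand). Low-number vehicle libraries held 1.64 to 3.59 CPM of it, with a median of 2.98. The 5 ATRA libraries held 30, 37.8, 43.7, 37.3 and 40.7 CPM. Every ATRA library therefore lay far above every vehicle library, and the ATRA libraries varied among themselves by a coefficient of variation of 13.4%. The rise was 3.85 ± 0.16 (adjusted p = 1.26e-17, edgeR), from a mean of 2.65 ± 0.728 to 37.9 ± 5.09 CPM, and it ranked 5 by p among all genes tested. The mesonephros markers, which mark tissue that was dissected away, summed to 6.66 to 15 CPM in low-number vehicle and 13.4 to 15.3 CPM in ATRA libraries. Of the 5 tested, only Pax2 was called (2.57 ± 0.24, adjusted p = 1.23e-09, edgeR), with means of 0.808 CPM in low-number vehicle and 4.85 CPM with ATRA. Of those not called, Lhx1 (−1.21 ± 0.52), Cdh16 (−0.17 ± 0.52) and Gata3 (−0.01 ± 0.22) leaned down, and Pax8 (0.22 ± 0.22) up. The higher sums with ATRA thus rest on Pax2 and are not shared by the list. All 6 had reads in every ATRA library, against 5 of 6 in every low-number vehicle library. The exception, Hoxd13, was too low to be tested, at 0 to 0.512 CPM over the 30 libraries. The part of this tissue in the Rarb rise was not tested.

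Rarg encodes retinoic acid receptor gamma (ENSMUSG00000001288, chr15:102234938-102257517, minus strand). Low-number vehicle libraries held 26.5 to 36 CPM, with a median of 35. The 5 ATRA libraries held 40.8, 42, 40, 45.1 and 41 CPM, so the groups did not overlap, although the gap between them was small. The rise was 0.34 ± 0.09 (adjusted p = 0.00722, edgeR), far smaller than that of Rarb. Cell type markers of the same libraries are given with Rara below, and the part of cell makeup in the Rarg rise was not tested.

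Rara encodes retinoic acid receptor alpha (ENSMUSG00000037992, chr11:98927818-98974942, plus strand), the most abundant of the 3 in vehicle. Low-number vehicle libraries held 73.8 to 106 CPM, with a median of 90.7. The ATRA libraries held 71, 74.7, 78.8, 75.7 and 74.3 CPM, which is the low end of the vehicle range, with 1 of 5 below every vehicle library. Rara fell by 0.26 on the log2 scale (SE 0.08, adjusted p = 0.0213, edgeR). Without ATRA replicate 1, the lowest of the 5, the change was −0.24 ± 0.09 (adjusted p = 0.0505, edgeR), which misses the threshold. The summed level of 7 interstitial and peritubular markers was 3390 to 4050 CPM with ATRA against 4880 to 5420 CPM in low-number vehicle. Most of that sum is Col3a1 (means of 2060 against 3000 CPM) and Pdgfra (862 against 1210 CPM). Of the 7, 3 fell, these included, and 0 rose. Of those not called, Acta2 (0.17 ± 0.09) and Tcf21 (0.11 ± 0.09) leaned up, and Myh11 (−0.20 ± 0.08) and Nr2f2 (−0.06 ± 0.07) down. Sertoli cell markers had 7 of 10 higher and 1 lower, Amh (−0.61 ± 0.14). Their sums overlapped, at 2600 to 2970 against 2090 to 3120 CPM. Over all genes 9.06% were higher and 9.03% lower. In whole-tissue RNA, fewer cells of a type and less RNA per cell cannot be told apart, and the part of cell makeup in the Rara change was not tested.

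None of the retinoid X receptors was called with ATRA. Rxra, which encodes the alpha form (ENSMUSG00000015846, chr2:27676440-27762957, plus strand), stood at 124 to 148 CPM in low-number vehicle, with a median of 128. It stood at 122, 123, 120, 128 and 120 CPM with ATRA, with 4 of 5 below every vehicle library. The difference of −0.11 ± 0.06 did not pass the test (adjusted p = 0.265, edgeR; 95% interval −0.24 to 0.02). Rxrb, the beta form (ENSMUSG00000039656, chr17:34031812-34038393, plus strand), stood at 91.2, 92.8, 97.1, 92.4 and 95.9 CPM with ATRA, inside the vehicle range of 72.9 to 101 CPM. Its interval of −0.08 to 0.15 leaves room only for a small change, and the estimate was 0.04 ± 0.06 (adjusted p = 0.756, edgeR). Rxrg, the gamma form (ENSMUSG00000015843, chr1:167598384-167639623, plus strand), stood at 0.328 to 0.829 CPM with ATRA and 0.379 to 0.907 CPM in low-number vehicle. Its estimate of −0.43 ± 0.31 (adjusted p = 0.41, edgeR) had an interval of −1.06 to 0.20, which spans a large fall and a small rise.

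MEHP alone changed none of the 6 receptors at the threshold, against 4.72% of all genes tested (2.88% higher and 1.84% lower). Unadjusted p-values were under 0.05 for 2 of them, Rarb and Rxrg, which ranked 1486 and 1620 by p among all genes tested. Many other genes thus had smaller p-values, and the count says little. Limma voom and DESeq2 also called 0 receptors. The 6 MEHP libraries held 2.64 to 5.79 CPM of Rarb, with a median of 3.32, and the 6 high-number vehicle libraries held 1.58 to 3.87 CPM, with a median of 2.37. The ranges overlap, with 2 of 6 MEHP libraries above every high-number vehicle library. The difference was 0.56 ± 0.20 (unadjusted p = 0.0102, adjusted p = 0.132, edgeR), with a 95% interval of 0.14 to 0.98. It passed the threshold without high-number vehicle replicate 3, the highest of its group (0.73 ± 0.20, adjusted p = 0.0264, edgeR), and in a model without the number term, which uses all 15 vehicle libraries (0.51 ± 0.16, adjusted p = 0.0375, edgeR). Without MEHP replicate 1, the highest of its group, it was 0.38 ± 0.20 (adjusted p = 0.45, edgeR), so single libraries move it both ways. Rxrg stood at 0.225 to 0.776 CPM with MEHP against 0.512 to 1.95 CPM in high-number vehicle, a difference of −0.84 ± 0.32 (adjusted p = 0.15, edgeR). Rarg (0.18 ± 0.10), Rara (−0.10 ± 0.08), Rxra (−0.05 ± 0.07) and Rxrb (−0.03 ± 0.06) lay within the spread of their groups. For Rarg the estimate was 0 in the model without the number term. Rarg was also the receptor that differed most, by p, between the 2 sides of vehicle, at −0.29 ± 0.09 in high-number against low-number libraries (adjusted p = 0.121, edgeR). That difference was called without high-number replicate 2 (−0.37 ± 0.09, adjusted p = 0.0441, edgeR). Over all genes 0.373% differed between the 2 sides of vehicle, with 0.254% higher and 0.119% lower, and 0 of 6 receptors did.

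**Figure D2:**
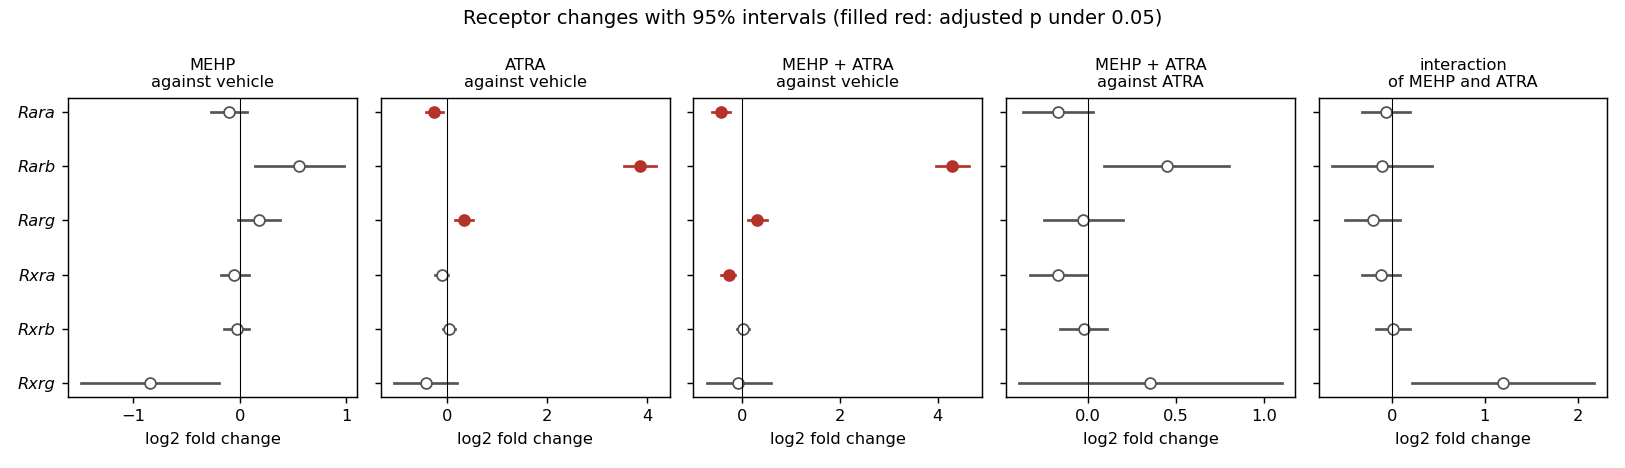
Log2 fold changes of the 6 receptors with 95% intervals in 5 comparisons (axes differ between panels, filled red points have an adjusted p under 0.05). Rarb moves by 3.85 with ATRA and 4.30 with both compounds, the interaction panel holds no called receptor, and the Rxrg intervals are the widest in each panel.

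With both compounds, Rarb had its highest mean level of the series, and both Rxra and Rara fell against vehicle. In the direct comparison with ATRA alone, given below, none of the 6 receptors passed. Against the same 9 low-number vehicle libraries as before, 4 of 6 receptors were called, against 29% of all genes tested (14.3% higher and 14.7% lower). The MEHP + ATRA and ATRA comparisons share these control libraries, so their values are given side by side and not as 2 independent tests. Rarb stood at 46.9, 52, 56.3 and 51.3 CPM, a rise of 4.30 ± 0.17 (adjusted p = 9.38e-19, edgeR). Rarg stood at 36.8, 50.2, 39.4 and 37.6 CPM, all above the vehicle maximum of 36, and rose by 0.31 ± 0.10 (adjusted p = 0.0145, edgeR). That call rests on replicate 2, without which the change was 0.21 ± 0.10 (adjusted p = 0.136, edgeR).

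Rara stood at 69.4, 77, 59.6 and 60.4 CPM with both compounds, with 3 of 4 libraries below every low-number vehicle library. It fell by 0.43 on the log2 scale (SE 0.09, adjusted p = 0.000285, edgeR). Rxra stood at 109, 122, 102 and 103 CPM, all below the vehicle minimum of 124, and fell by 0.28 (SE 0.07, adjusted p = 0.00206, edgeR). Replicate 2 was the highest of the 4 for Rara, Rarg, Rxra and Rxrg. Without it the changes were −0.50 ± 0.09 for Rara and −0.34 ± 0.07 for Rxra, both still called (adjusted p = 0.000772 for Rxra, edgeR). The interstitial and peritubular markers summed to 3300 to 3720 CPM in these libraries, with 4 of 7 lower and 0 higher. Most of that sum is Col3a1 (mean 1780 CPM) and Pdgfra (799 CPM). Sertoli cell markers had 7 of 10 higher and 1 lower, with sums that overlap (2530 to 3270 against 2090 to 3120 CPM in low-number vehicle). Germ cell markers had 3 of 10 lower and 0 higher, also with overlapping sums (579 to 853 against 622 to 1160 CPM). Beside 14.3% higher and 14.7% lower over all genes, the germ cell count says little. The part of cell makeup in the Rara, Rarg and Rxra changes was not tested. Rxrb stood at 99.4, 96.2, 89.1 and 85.2 CPM (0.01 ± 0.06, adjusted p = 0.895, edgeR), and Rxrg at 0.561, 1.12, 0.495 and 0.57 CPM (−0.08 ± 0.32, adjusted p = 0.89, edgeR).

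The effect of adding MEHP to ATRA was tested directly between the 4 MEHP + ATRA and the 5 ATRA libraries. None of the 6 receptors passed, against 3% of all genes tested (1.62% higher and 1.38% lower). Unadjusted p-values were under 0.05 for Rarb and Rxra, which ranked 1431 and 2119 by p among all genes tested, so this count too says little. All 4 MEHP + ATRA libraries held more Rarb than all 5 ATRA libraries, with 46.9 CPM as the lowest of the former and 43.7 CPM as the highest of the latter. The difference was 0.45 ± 0.17 (unadjusted p = 0.0147, adjusted p = 0.199, edgeR), with a 95% interval of 0.09 to 0.80. A model of these 9 libraries alone called it at the same size (0.45 ± 0.09, adjusted p = 0.015, edgeR), and the estimate was 0.33 to 0.48 over the other settings that kept every library. How many of all genes the model of 9 libraries called is not given here. Rara and Rxra each differed by −0.17, with SE of 0.10 and 0.08 (adjusted p = 0.484 and 0.313, edgeR). Limma voom with sample weights called both, at −0.23 ± 0.07 for Rara (adjusted p = 0.0457) and −0.22 ± 0.06 for Rxra (adjusted p = 0.0271). It also called more genes in all, 1656 against 579 of 19323 in the main model, so these 2 calls say little.

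The interaction asks whether the MEHP effect with ATRA differs from the MEHP effect without it, and no receptor passed that test, against 0.0311% of all genes (0.0104% higher and 0.0207% lower). The edgeR test gave 1 receptor an unadjusted p under 0.05, and limma voom and DESeq2 also called 0. For Rarb the interaction was −0.11 ± 0.27 (95% interval −0.65 to 0.43), so the MEHP difference of 0.56 without ATRA and that of 0.45 with it were not told apart. Rxrg had the largest estimate at 1.20 ± 0.48 (unadjusted p = 0.0195, adjusted p = 0.912, edgeR), from a gene of 4 to 37 counts. Against MEHP alone, MEHP + ATRA raised Rarb by 3.74 ± 0.27 (adjusted p = 3.3e-11, edgeR), the only receptor of 6 called there, against 8.29% of all genes (4.06% higher and 4.23% lower). The MEHP and MEHP + ATRA libraries lie on opposite sides of 500, so this comparison rests on the side difference estimated in vehicle. Without that term 4 of 6 receptors were called, beside 3181 of all 19323 genes tested, against 1601 with it. As calls rose over all genes too, this count says little. Rarg went from 0.13 ± 0.14 with the term to 0.42 ± 0.12 without it. In that comparison Rara differed by −0.33 ± 0.12 (adjusted p = 0.0947, edgeR), and it was called without MEHP + ATRA replicate 2 (−0.40 ± 0.12, adjusted p = 0.0363) or without high-number vehicle replicate 5 (−0.37 ± 0.12, adjusted p = 0.0391).

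These changes altered the makeup of the retinoic acid receptor pool more than that of the retinoid X receptors. Shares are of TPM summed over the 3 genes of a family, with no test, since the sum is over chosen genes. Rarb made up 3.01 ± 0.951% of the retinoic acid receptor mRNA in low-number vehicle (SD, n = 9), 2.92 ± 1.23% in high-number vehicle and 4.19 ± 1.38% with MEHP. With ATRA it made up 31.3 ± 2.62% (n = 5), and with both compounds 40.4 ± 3.62% (n = 4). The lowest share with ATRA, 27.4%, stood well above the highest without it, 6.69%. Rara went from 69.6 ± 3.87% in low-number vehicle to 43.1 ± 1.13% with ATRA and 36.1 ± 3% with both, while Rarg stayed between 22.6% and 27.4% in the 5 group means. Taken without division by length, the Rarb share was 24.4% with ATRA and 32.6% with both.

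The order of levels per length changed with it. With ATRA, Rarb stood at 41.1 ± 6.08 TPM, below every Rara value and above Rarg in 4 of 5 libraries, with ranges that overlap those of Rarg. With both compounds Rarb stood at 55.7 ± 4.74 TPM and Rara at 50 ± 7.02 TPM, with Rarb higher in 2 of 4 libraries, so these 2 could not be ordered. Rxra, which overlapped Rxrb in vehicle, lay below every Rxrb value with ATRA (73.8 ± 1.75 against 83.5 ± 3.53 TPM) and with both compounds (65.4 ± 6.89 against 81.8 ± 5.73 TPM). Its share of the retinoid X receptor mRNA was 49.2 ± 1.87% in low-number vehicle, 46.7 ± 1.11% with ATRA and 44.1 ± 1.43% with both. These orders rest on the division by gene length. Without it Rxra made up 56.5% and Rxrb 43.2% of the retinoid X receptor counts with ATRA, against 59% and 40.7% in low-number vehicle, and mean Rarb with ATRA (37.9 CPM) lay below mean Rarg (41.8 CPM). The 3 retinoic acid receptors summed to 95.3 ± 7.29 TPM in low-number vehicle, 131 ± 9.11 with ATRA and 139 ± 14.1 with both. The 3 retinoid X receptors summed to 160 ± 11.8, 158 ± 3.97 and 148 ± 12.4 TPM. The ratio of the former sum to the latter was 0.524 to 0.629 over the vehicle and MEHP libraries and 0.764 to 0.971 over the libraries with ATRA.

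**Figure D3:**
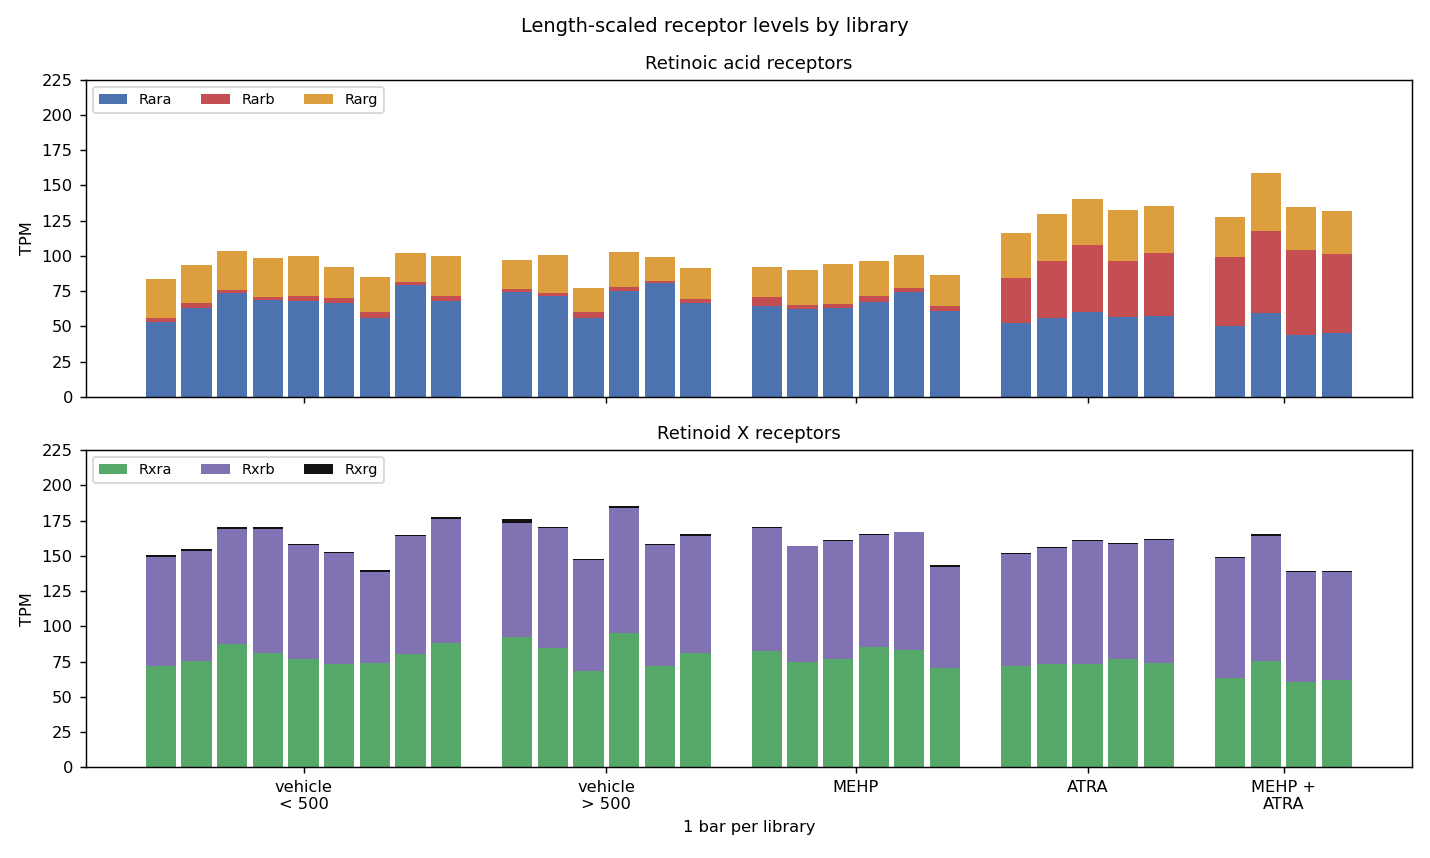
Levels per length of the 3 retinoic acid receptors (top) and the 3 retinoid X receptors (bottom) in TPM, stacked, with 1 bar for each of the 30 libraries. The Rarb segment is thin in vehicle and MEHP bars and makes up 27.4% to 44.4% of the retinoic acid receptor bars with ATRA, and Rxrg is a thin line in every bar.

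For each receptor called against vehicle, the 3 genes with the nearest pattern were found among tested genes whose log2 CPM averaged 1 or more. Likeness is the root mean square difference between the 5 group means of log2 CPM over the 30 libraries, each gene centred on its own mean, and carries no test. Rarb was nearest to Il33, which encodes an alarmin cytokine (difference 0.167), and then to Ecm1, an extracellular matrix protein gene (0.34), and Tmem255a (0.539). Il33 differed from vehicle by 3.81 with ATRA and 3.97 with both, where Rarb differed by 3.85 and 4.30. Rarg was nearest to Nr2f1, which encodes the orphan receptor COUP-TFI (0.0351), then to the aquaporin gene Aqp11 (0.0354) and the bHLH factor gene Tcf15 (0.0355). With a floor of 3 on mean log2 CPM, only Nr2f1 stayed among the 3 nearest to Rarg, and Il33 dropped out for Rarb, leaving Ecm1 and Tmem255a. Rara was nearest to the cytochrome P450 gene Cyp2j6 (0.0128), Vcpkmt (0.0159) and the cytolinker gene Plec (0.0183), and Rxra to Calhm2 (0.014), the ciliary gene Tctn3 (0.0162) and the kinesin family gene Kif26a (0.0176).

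**Figure D4:**
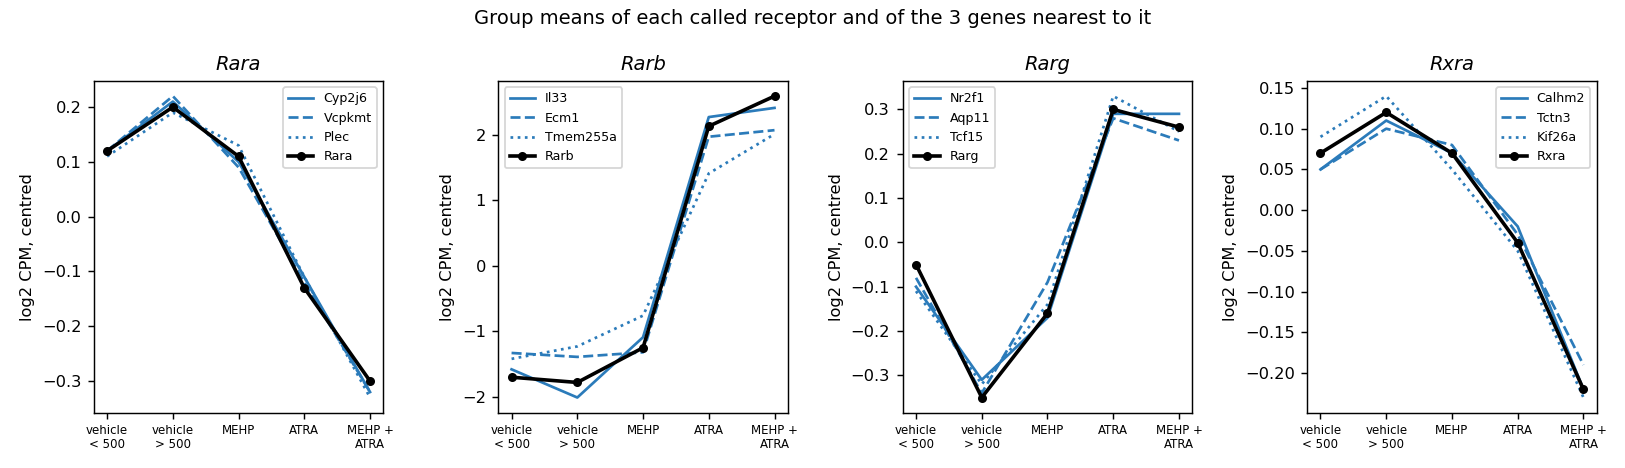
Group means of log2 CPM, each gene centred on its own mean over the 5 groups, for the 4 called receptors (black) and the 3 genes nearest to each (blue), with axes that differ between panels. Rarb and Il33 climb together with ATRA, at a difference of 0.167, and the Rara and Rxra panels span a far smaller range.

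The other genes of the pathway were counted in 6 lists, some of which share genes. Of 15 corepressor genes, 4 rose and 1 fell with ATRA, 4 rose and 2 fell with both compounds, and 1 rose with MEHP. The median change was 0.04, 0.03 and −0.01, beside 0, −0.01 and −0.01 over all genes tested. In the background 18.1% of all genes tested were called with ATRA, 29% with both compounds and 4.72% with MEHP, so the corepressor counts of 5, 6 and 1 of 15 stand out little. Sin3b, a scaffold of histone deacetylase complexes, was called in all 3 comparisons, at 0.29 ± 0.05 with MEHP, 0.28 ± 0.05 with ATRA and 0.43 ± 0.05 with both. Nrip1, a ligand-dependent corepressor, rose by 0.25 ± 0.05 with ATRA and 0.45 ± 0.06 with both, and Lcor by 0.32 ± 0.06 and 0.36 ± 0.07. The histone methyltransferase gene Nsd1 rose by 0.12 ± 0.04 and 0.21 ± 0.04. Tbl1x, a subunit of the NCoR complex, fell by 0.13 with ATRA and 0.10 with both (SE 0.04 each). Ncor1, a core nuclear receptor corepressor gene, lay between −0.02 and 0.03 in the 3 comparisons and was not called.

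Of 18 coactivator genes, 3 rose and 1 fell with ATRA, 6 rose and 2 fell with both compounds, and 2 rose with MEHP, with medians of 0.01, −0.02 and −0.02. These counts too are near the shares over all genes (18.1%, 29% and 4.72%). Ncoa3, which encodes a p160 coactivator of nuclear receptors, had the smallest p of the list in each of the 3. It stood at 74.6 ± 4.92 CPM in low-number vehicle, 132 ± 4.13 with ATRA and 148 ± 14.2 with both. Its rises were 0.19 ± 0.05 with MEHP (adjusted p = 0.0249), 0.82 ± 0.05 with ATRA (adjusted p = 6.06e-14) and 0.99 ± 0.05 with both (adjusted p = 1.27e-15, edgeR). The related Ncoa1 was not called, and Ncoa2 was called with both compounds only (0.21 ± 0.08). Ppargc1a, a coactivator of metabolic genes, rose with MEHP (0.53 ± 0.15) and with both (0.89 ± 0.15), and its difference with ATRA was 0.15 ± 0.15. Trim24 (0.23 ± 0.05) and Cnot1 (0.16 ± 0.05) rose with ATRA, and the acetyltransferase gene Kat2b fell by 0.27 (SE 0.07).

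Of 14 tested receptors that pair with retinoid X receptors or share their sites, 2 rose and 2 fell with ATRA, 2 rose and 3 fell with both, and 0 were called with MEHP. The medians were −0.06, −0.07 and 0.04, and the counts are again near the shares over all genes (18.1%, 29% and 4.72%). Vdr, the vitamin D receptor gene, stood at 7.64 ± 1.35 CPM in low-number vehicle, 24.2 ± 3.82 with ATRA and 22.7 ± 3.8 with both, rises of 1.66 ± 0.14 and 1.57 ± 0.14. Nr2f1 rose by 0.39 ± 0.09 and 0.42 ± 0.10. Nr4a1, an immediate early orphan receptor gene, fell by 0.57 with ATRA and 0.54 with both (SE 0.14 and 0.15), and the thyroid hormone receptor gene Thrb by 0.38 and 0.42 (SE 0.10 and 0.11). Ppara, Ppard and Pparg, the receptors for fatty acids and phthalate monoesters, were not called in any of the 3 comparisons. Their differences with MEHP were −0.24 ± 0.12, 0.11 ± 0.10 and 0.22 ± 0.22.

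Upstream of the receptors are the genes of ligand supply and clearance. Of 7 tested carrier and uptake genes, 4 rose and 1 fell with ATRA, 3 rose and 2 fell with both, and 1 rose with MEHP, with medians of 0.84, 0.68 and 0.03, beside 18.1%, 29% and 4.72% of all genes called. Crabp1, which binds retinoic acid in the cytosol, rose by 1.17 ± 0.25 with ATRA and 1.05 ± 0.27 with both. Stra6, the retinol uptake receptor gene, rose by 0.75 ± 0.14 and 0.54 ± 0.16. Rbp4, the plasma retinol carrier gene, rose with ATRA (0.84 ± 0.25) and differed by 0.68 ± 0.27 with both, which was not called. Fabp5, a fatty acid carrier that can also bind retinoic acid, fell by 0.24 with ATRA (SE 0.07) and 0.57 with both (SE 0.08). Of 14 genes of synthesis and clearance, 6 rose and 2 fell with ATRA, 6 rose and 3 fell with both, and 2 rose and 1 fell with MEHP, with medians of 0.22, 0.16 and 0.16, beside the same shares of all genes (18.1%, 29% and 4.72%). Dhrs3, which reduces retinal to retinol, rose by 0.57 ± 0.07 with MEHP, 2.59 ± 0.06 with ATRA and 3.06 ± 0.07 with both. The retinoic acid hydroxylase genes Cyp26a1 (6.10 ± 0.31) and Cyp26c1 (5.77 ± 0.40) and the retinol esterification gene Lrat (2.00 ± 0.16) rose with ATRA. Cyp26a1 and Cyp26c1 started very low, at means of 0.235 and 0.0711 CPM in low-number vehicle, and reached 17.2 and 4.06 CPM. Cyp26b1 was far more abundant, at 140 CPM in low-number vehicle and 259 CPM with ATRA. Its rise was 0.89 ± 0.14 (adjusted p = 1.37e-05, edgeR). The retinol dehydrogenase gene Rdh11 rose with MEHP (0.34 ± 0.07). The retinaldehyde dehydrogenase gene Aldh1a1 fell by 0.34 with MEHP (SE 0.09), 0.85 with ATRA and 1.08 with both.

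Downstream, 25 known retinoic acid targets other than the receptors were counted. With ATRA 17 rose and 3 fell, with both compounds 18 rose and 5 fell, and with MEHP 3 rose and 1 fell, with medians of 1.12, 1.5 and 0.11. Over all genes 18.1%, 29% and 4.72% were called. Stra8, the germ cell gene that starts meiosis, rose by 2.05 ± 0.42 with MEHP, 5.03 ± 0.32 with ATRA and 5.70 ± 0.33 with both. The immediate early gene Egr1 fell by 0.60 with MEHP (SE 0.16). The Rarb change of 3.85 with ATRA thus lay within the span of these targets, below those of Cyp26a1 and Stra8 and above that of Dhrs3.

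**Figure D5:**
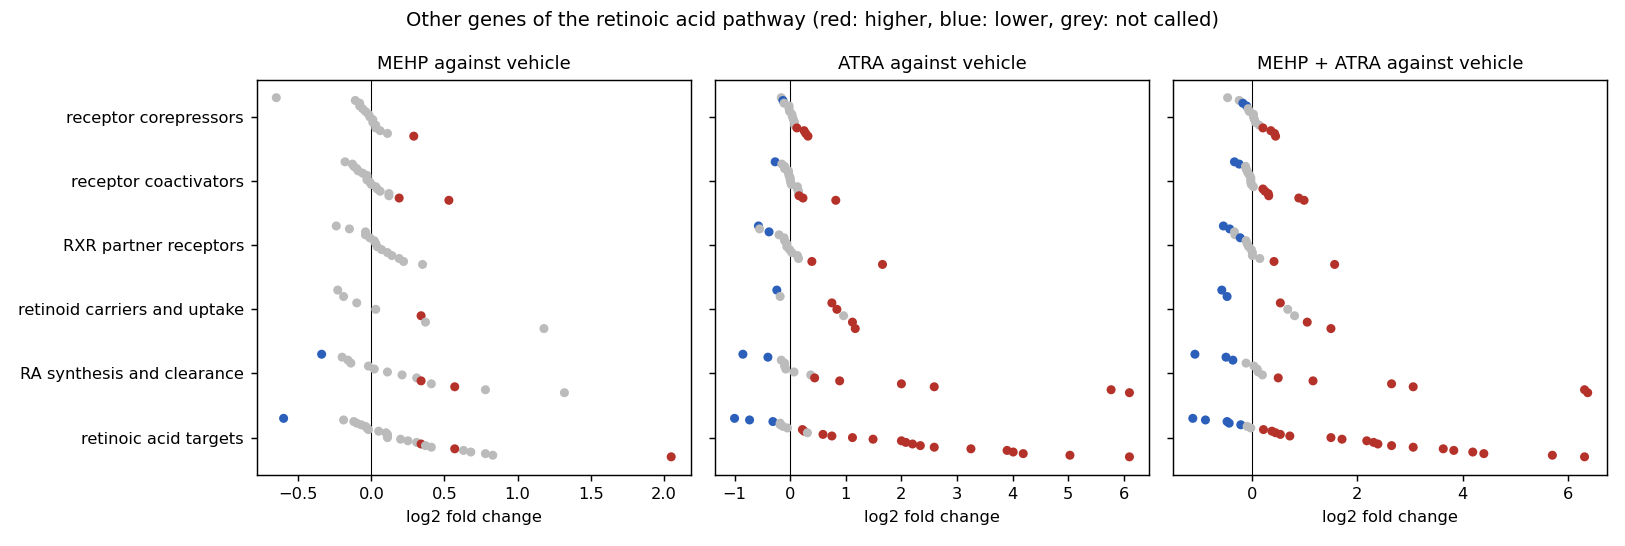
Log2 fold changes of the genes of 6 pathway lists against vehicle, with 1 point per gene and 1 row per list (red higher, blue lower, grey not called, axes differ between panels). The medians of the corepressors and coactivators lie within 0.04 of 0 in the 3 panels, and most retinoic acid targets lie to the right with ATRA, with a median of 1.12.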

How the data were processed

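RNA of 30 fetal testis cultures was sequenced after oligo(dT) selection, with NEBNext Ultra II reagents as the labels' protocols state. Per the file headers, the authors deposited unnormalized gene counts as featureCounts output for each library, together with exonic gene lengths in bases. The submitters' processing notes name featureCounts (Subread 1.5.2), the aligner STAR 2.5.2b, Trimmomatic 0.36, bcl2fastq 2.20 and DESeq2. Their genome build, annotation and use of strand: not given in the sources used here. Deposited coordinates equal those of GENCODE M21 (GRCm38) for 91.43% of matched genes, so they are printed on a GRCm38 frame, although those of Rarb and Rxrb differ from that release. No receptor's exons share a base with another gene's exons. Counts are per gene, so isoforms, the Rarb isoforms among them, were not told apart. The deposited Rarb model held 8 distinct exon entries, against 18 to 28 for the other receptors, while GENCODE M21 lists 7 Rarb transcripts. Rarb exons outside that model would not be counted, and its TPM and shares rest on the model's length of 3034 bases. What this does to the Rarb levels was not tested. Symbols matched 99.3% of identifiers.

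Counts were analysed with edgeR 4.0.16 (R 4.3.3): filterByExpr with a minimum count of 10, TMM scaling (factors 0.975 to 1.02), and a quasi-likelihood model of treatment plus side of 500 over 30 libraries, with 25 residual degrees of freedom and a biological coefficient of variation of 12.7%. The tests are two-sided F tests in 7 contrasts. Simulated data tried only those of MEHP and ATRA against vehicle, with changes set in the ATRA libraries alone and the same spread for every gene. SE were derived from F. CPM are TMM-scaled, and log2 CPM used a prior count of 2. TPM were computed from the deposited counts and lengths. Group means are ± SD. The labels do not state whether libraries are from different animals. The p-values therefore reflect the variation among these libraries alone, part of which may be technical.

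The 6 receptors and the gene lists were chosen with earlier results of these data known. The rule for named genes took the receptors, the 3 genes nearest in pattern to each called receptor, and up to 4 called genes with the smallest p per pathway list and treatment. Genes or values outside that rule (Ncor1, Ncoa1, Ncoa2, Ppara, Ppard, Pparg, Cyp26b1 and the cell type markers, and further comparisons of listed genes) are named as family members or for scale, chosen after their values were seen. Some genes that the rule or the lists hold are not reported here. Alternatives were other size factors, no filter, DESeq2 1.42.0, limma 3.58.1 voom with sample weights, no side term, only the libraries of a contrast, a block on the first title number, and each library left out.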

Additional observations from a re-analysis of the deposited data

Results flagged for a closer look

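Of the 30 sets of receptor values (6 receptors in 5 groups), 3 had 1 library far from the others by Dixon's test, which chance gives in about 1 in 20 groups. Rara stood at 102 CPM in MEHP replicate 5, where the nearest of the 6 libraries held 88.5 CPM. Rxrb stood at 72.9 CPM in low-number vehicle replicate 7, where the nearest of the 9 held 90.2 CPM. Rxrg stood at 1.12 CPM in MEHP + ATRA replicate 2, where the nearest of the 4 held 0.57 CPM.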

How the results depend on the processing

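Rarb kept its direction and its call against vehicle with ATRA (3.78 to 3.92) and with both compounds (4.24 to 4.38) in every setting run, each library left out in turn included. The number of receptors called was the same under DESeq2 size factors, upper quartile factors, no filter, DESeq2 and the replicate block in all comparisons that these could fit. With limma voom 2 receptors were called for MEHP + ATRA against ATRA and 2 for MEHP + ATRA against MEHP. With no side term 1 was called for MEHP and 4 for MEHP + ATRA against MEHP, where Rarg (0.42 ± 0.12) and Rxra (−0.29 ± 0.07) joined Rara and Rarb. With only the libraries of the contrast 1 was called for MEHP + ATRA against ATRA. Leaving out 1 library gave 0 to 1 called for MEHP, 2 to 3 for ATRA, 3 to 4 for both, 1 to 2 for MEHP + ATRA against MEHP and 0 to 1 between the sides of vehicle. Over all genes, MEHP called 912, with 2229 under no side term and 439 with only its own libraries. ATRA called 3494, with 5527 under limma voom. MEHP + ATRA against ATRA called 579, with 1656 under limma voom, and MEHP + ATRA against MEHP called 1601, with 3181 under no side term. The interaction called 6, with 12 under DESeq2, 10 under limma voom, 10 with no side term and 2 under the block. The sides of vehicle called 72, with 338 under DESeq2, 136 under limma voom and 19 with no filter. The cause of these differences was not tested.

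Estimates near 0 that passed no test changed sign. For Rxrb the interaction was −0.01 with upper quartile factors and −0.02 with limma voom and with no side term, MEHP + ATRA against vehicle was −0.04 with limma voom and −0.01 with no side term, and against MEHP it was 0 in both. Rarg with MEHP was 0 with no side term. Under the replicate block, Rxrg with both compounds was 0.04, Rarg and Rxrb in MEHP + ATRA against ATRA were 0.02 and 0.04, and the Rara interaction was 0.06. Leaving out 1 library gave −0.28 to 0.07 for the Rarb interaction and −0.02 to 0.06 for that of Rxrb, −0.02 to 0.05 for Rxrb and −0.40 to 0.05 for Rxrg with both compounds, −0.13 to 0.03 for Rarg and −0.05 to 0.02 for Rxrb in MEHP + ATRA against ATRA, −0.09 to 0 for Rxra with MEHP, and −0.25 to 0.03 for Rarb between the sides of vehicle. The Rarb share without division by length was 24.4% with ATRA and 32.6% with both, and of the 3 genes nearest to Rarg, 1 stayed with the higher floor.

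A pairing by the first title number was checked before the block was compared. Same-numbered libraries correlated at −0.108 to 0.746 in their deviations from group means (median 0.143, 15 of 27 pairs over 0.1). Other pairs correlated at −0.484 to 0.447 (median −0.0169, 16 of 90 over 0.1). Same-numbered libraries were thus more alike, though the ranges overlap. The labels do not explain the number, and the main model leaves it out, so any grouping by it is not accounted for there. The replicate block called 0 receptors for MEHP, 3 for ATRA and 4 for both, with 1227, 3848 and 6021 genes in all. At 4 to 37 counts a library, depth limits what can be said of Rxrg.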
